A study of Mus musculus with 19 samples.

Results

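RNA of E0771 tumor cells from obese and from lean mice was compared at day 21 after implantation, in 5 obese and 4 lean libraries, which are 9 of the 19 libraries of the study. E0771 is a mouse mammary carcinoma line that arose in the C57BL/6 strain, and the cells used here carried the red fluorescent protein mCherry. A dose of 50000 cells was placed in the mammary fat pad of c57bl6 mice that the labels call lean (titled Chow) or obese (titled HFD). Tumors were taken at the midpoint, day 14, or at the endpoint, day 21, and cells sorted for mCherry gave the total RNA. All libraries therefore come from the same cell line, strain, implantation site and sort, and differ in host and day. The libraries were chosen by their labels. The remaining lean endpoint library, replicate 4, was kept out of the comparison because its counts stop on chromosome 5. The labels number the libraries of a group as replicates without saying that each came from its own animal or tumor, so errors and p-values measure only the spread between these libraries, which may be technical in part. Obese and lean tumors below stand for these libraries. The labels give no age or sex of the mice, no diet length and no number of sorted cells.

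Cholesterol is built from acetyl-CoA through the mevalonate pathway. Its genes are turned on together by the transcription factor SREBP-2 when sterols are scarce in the membrane of the endoplasmic reticulum, and INSIG proteins hold that factor back when sterols are plentiful. Interferons induce another shared gene program through STAT and IRF factors, whose members sense viral RNA and restrict viruses. Both programs can run in carcinoma cells and in the stromal and immune cells of a tumor.

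The 9 libraries held 47959181 to 56717154 counts. CPM here means counts scaled to library size with the TMM method, unless it is said to be of the library total. In lean replicate 1, 44.7% of the counts came from the mitochondrial genome, against 17.1% to 24.4% in the other 8 libraries. Read counts also leaned toward AT-rich or GC-rich genes to a different degree in each library. The slope of log2 CPM on gene GC was -0.11 per 10 points of GC in lean replicate 2 and -1.07 to -0.53 in the other 8 libraries. The 5 obese slopes lay within the lean range. Of 13 mammary epithelial markers, Krt8 was measured at 13.4 to 32.7 CPM of the library total and Epcam reached at most 0.191 CPM. Krt5 and Krt19 had no count in any of the 9 libraries. The epithelial identity of the sorted cells is thus weakly marked in these counts.

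With all genes tested together, AU018091 was the gene that differed between obese and lean tumors at day 21. It was called by edgeR's quasi-likelihood test at an adjusted p under 0.05, as 1 of 16352 genes (0.00612%), and it rose in obese tumors. AU018091 (ENSMUSG00000054753), a protein-coding gene known by an expressed-sequence name, lies on chromosome 7 from 3154664 to 3169203 in mm10. It measured 0.315, 0.488, 0.847 and 0.664 CPM in lean replicates 1, 2, 3 and 5, and 2.10, 1.79, 2.81, 1.89 and 2.31 CPM in obese replicates 1 to 5. Every obese library lay above every lean library. The log2 fold change was 1.89 ± 0.27 (SE), with an adjusted p of 0.019 by edgeR. After adjustment for the GC trend of each library it was 1.92, with an adjusted p of 0.0061, and again 1 gene was called (0.00612%). These values come from a fit that also held the 9 midpoint libraries. With the 9 endpoint libraries fitted alone, 0 of 15572 genes passed and 925 (5.94%) had an unadjusted p under 0.05. There AU018091 had an edgeR adjusted p of 0.437, and Prickle1 a lower one of 0.167 (0.299 and 0.125 with the GC adjustment). In the fit with the midpoint libraries, the call of AU018091 was lost without lean replicate 1 (adjusted p = 0.0932), 2 (0.198) or 5 (0.101). It was also lost without obese replicate 1 (0.0522), 3 (0.0804) or 5 (0.0637).

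Differences between the groups were small for most genes. At an unadjusted p under 0.05 there were 800 genes (4.89%), of which 374 (2.29%) lay higher and 426 (2.61%) lower in obese tumors. After the GC adjustment there were 1166 (7.13%), 643 higher and 523 lower. The split depended on the scaling: it was 512 to 325 with RLE scaling and 346 to 514 with upper quartile scaling. Over all genes the median log2 fold change was -0.0049 and its median size was 0.18, against a median SE of 0.28. Of all genes, 49.3% had a log2 fold change above 0, or 53.2% after the GC adjustment. The groups did not overlap in CPM in 322 genes (1.97%), of which 104 (0.636%) lay higher and 218 (1.33%) lower in obese tumors. After the GC adjustment the groups were apart in 218 genes (1.33%) higher and 223 (1.36%) lower, so the excess on the lower side was no longer there.

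**Figure D1:**
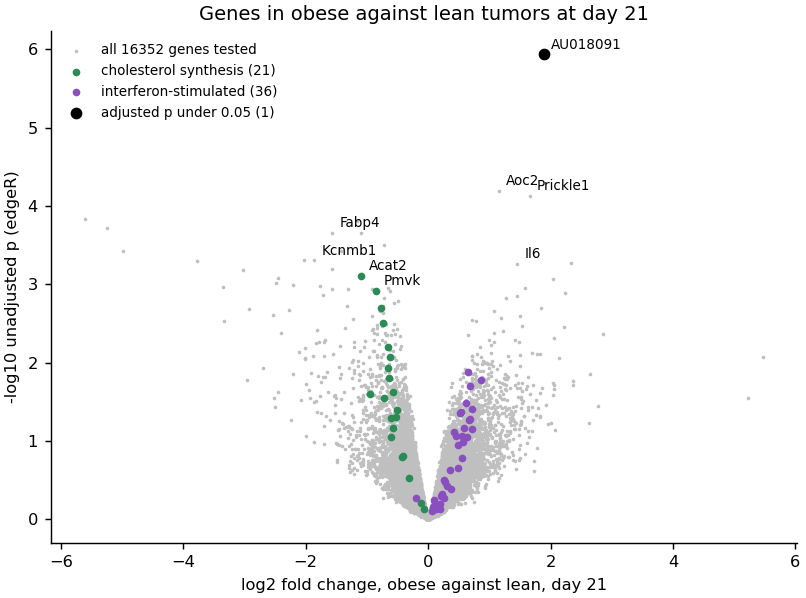
Log2 fold change of obese against lean tumors at day 21 (horizontal) and −log10 of the unadjusted edgeR p (vertical) for the 16352 genes tested, in 5 obese and 4 lean libraries. AU018091, at a log2 fold change of 1.89, stands above the other genes, the 21 cholesterol synthesis genes (green) lie left of 0, and 35 of the 36 interferon-stimulated genes (purple) lie right of 0.

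A set of 23 further genes is described because their groups did not overlap and their p was lowest on each side. In the fit with the midpoint libraries, none of them passed the adjustment over all genes by edgeR, with adjusted p of 0.4036 or higher. Aoc2, a copper amine oxidase gene on chromosome 11 (101325063 to 101329702), measured 2.21, 4.13, 2.52 and 4.35 CPM in the lean libraries and 7.30, 8.54, 6.68, 5.56 and 8.89 CPM in the obese ones. Prickle1, a planar cell polarity gene on chromosome 15 (93499114 to 93595891), measured 1.73, 2.21, 2.87 and 3.06 CPM in lean and 6.92, 7.97, 9.999, 6.14 and 8.17 CPM in obese tumors. In both genes the lowest obese library lay above the highest lean library, for Prickle1 by a factor of about 2. Their log2 fold changes were 1.16 ± 0.23 and 1.66 ± 0.33 (SE), each with an adjusted p of 0.4036.

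Il6 encodes interleukin-6, a cytokine that acts through STAT3. It lies on chromosome 5 (30013161 to 30019968) and measured 2.24, 0.732, 1.27 and 1.52 CPM in lean and 3.07, 2.82, 3.53, 6.55 and 3.72 CPM in obese tumors. Its log2 fold change was 1.46 ± 0.35 (SE, adjusted p = 0.5557), and 1.16 after the GC adjustment. Lif, a cytokine of the same receptor family, measured 7.66, 7.45, 4.64 and 5.82 CPM in lean and 10.7, 14.4, 9.58, 10.7 and 9.42 CPM in obese tumors. The obese libraries of both cytokine genes lay above the lean ones, with obese replicate 4 highest for Il6 and obese replicate 2 highest for Lif. At day 14 the log2 fold change of Il6 had the opposite sign, -1.504 (adjusted p = 0.0305). The difference between the days was 2.96, with an adjusted p of 0.0983. Over all genes the interaction of host and day called 0 genes by edgeR, while 5451 had an unadjusted p under 0.05. The day 14 and interaction values were not adjusted for the GC trend. At day 14 the slope of log2 CPM on gene GC was 0.11 to 0.53 per 10 points in the lean libraries and 0.36 to 1.86 in the obese ones.

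Other genes on the higher side were Psd2, an Arf6 exchange factor (1.19), Noct, the circadian phosphatase nocturnin (0.65), and Klf11, a zinc finger transcription factor (0.64). Mx2, an interferon-induced gene annotated as a polymorphic pseudogene, had 0.65. Tgif1, a homeobox repressor in TGF-beta signalling (0.38), and the collagen genes Col1a2 (1.58) and Col12a1 (1.08) complete this side. These are log2 fold changes, and each gene had groups that did not overlap before and after the GC adjustment.

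On the lower side, Fabp4 had the lowest p. It encodes a fatty acid carrier of adipocytes, macrophages and capillary endothelium and lies on chromosome 3 (10204347 to 10208576). Fabp4 measured 32.0, 32.7, 79.3 and 18.9 CPM in lean and 10.7, 17.3, 11.3, 16.9 and 12.7 CPM in obese tumors. Lean replicate 3 was the highest library, and lean replicate 5 lay just above the highest obese one. Its log2 fold change was -1.57 ± 0.35 (SE, adjusted p = 0.4549), and the groups overlapped after the GC adjustment (-1.74). Of 8 adipocyte markers, Adipoq reached at most 0.0399 CPM of the library total and Lep at most 0.039 CPM of the library total. Cfd, the adipocyte gene for adipsin, was at 0.613 CPM of the library total in lean replicate 3 and at most 0.0798 CPM in the other libraries. The 3 adipocyte markers that passed the filter were Fabp4, Pparg and Plin1, and their summed level, most of it Fabp4, was 20.8 to 79.7 CPM in lean and 11.2 to 21.9 CPM in obese tumors. The other two did not lie on the lower side. Pparg, a nuclear receptor of adipocytes and macrophages, had a log2 fold change of 0.62 ± 0.61 (SE). Plin1, which coats lipid droplets, had 0 counts in the lean libraries and 27 in the obese ones, with obese replicate 2 highest at 0.41 CPM of the library total. The part of adipocyte RNA in the Fabp4 values was not tested. In bulk samples such as these, fewer cells of a type and less RNA per cell cannot be told apart.

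Kcnmb1, the beta subunit of a calcium-activated potassium channel on chromosome 11, measured 11.7, 11.8, 3.87 and 4.92 CPM in lean and 1.40, 3.75, 2.62, 1.62 and 1.71 CPM in obese tumors. Lean replicates 1 and 2 were well above the rest, and lean replicate 3 was close to obese replicate 2. Its log2 fold change was -1.86 ± 0.45 (SE, adjusted p = 0.5557). The other genes on the lower side were H1f0, a linker histone (-0.65), Chrnb1, a subunit of the muscle acetylcholine receptor (-0.62), Gpr161, a ciliary receptor of Hedgehog signalling (-0.55), Htra1, a secreted serine protease (-0.74), Gpnmb, a transmembrane glycoprotein (-0.69), and the cholesterol genes Acat2, Pmvk and Dhcr7 described next.

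The small RNAs Rnu3a (U3, which guides ribosomal RNA cleavage) and Rny1 (a Y RNA) also belonged to the lower side, at -2.49 and -2.21. Rnu3a measured 28.0 CPM in lean replicate 1 and 2.32 to 3.47 CPM in the other lean libraries, against 0.607 to 2.04 CPM in obese tumors. Rny1 measured 10.1 CPM in lean replicate 1, 1.33 to 2.10 CPM in the other lean libraries and 0.180 to 1.09 CPM in obese tumors. Lean replicate 1 therefore holds most of the distance in both. Near-identical copies make counts of such RNAs uncertain.

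**Figure D2:**
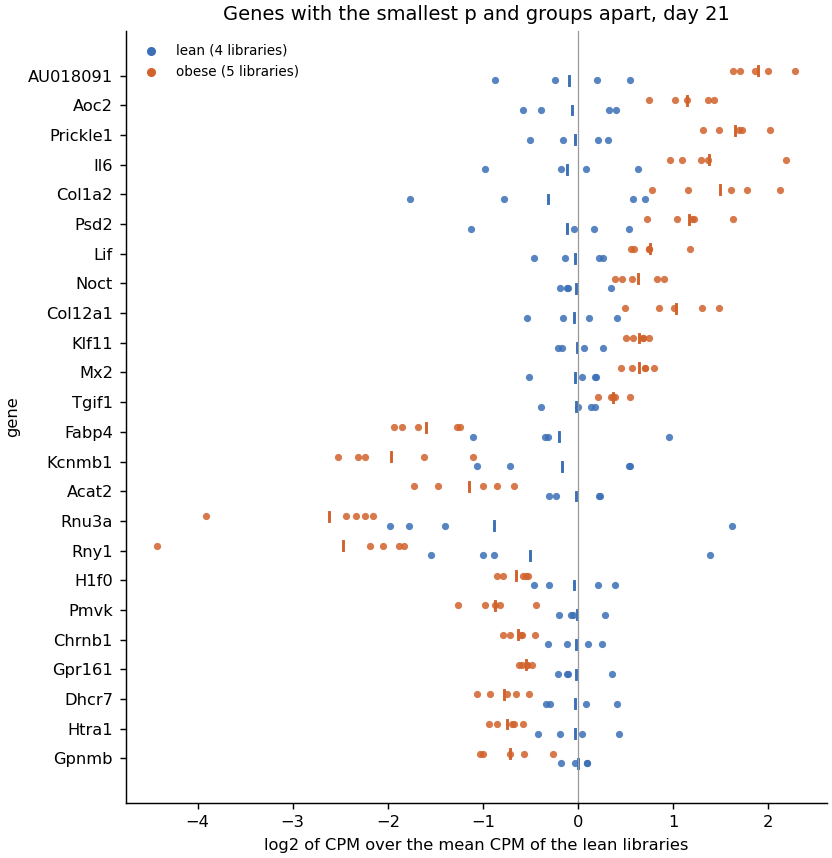
Each point is 1 library, as log2 of its CPM over the mean CPM of the 4 lean libraries (horizontal), for the 24 genes with the lowest p whose groups did not overlap (vertical); blue is lean, orange is obese, and short bars are group means of the log2 values. AU018091 and Prickle1 leave the widest gap between the groups, and lean replicate 1 lies far from the other lean libraries for Rnu3a and Rny1.

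Each of the 21 cholesterol synthesis genes tested lay below 0 on the log2 scale of obese against lean tumors, with a median of -0.60, where the median of all genes was -0.0049. Of them 0 passed over all genes, 13 lay lower at an unadjusted p under 0.05 (2.61% of all genes did), and 10 had groups that did not overlap (1.33% of all genes). After the GC adjustment the median was -0.60, with 18 genes lower at an unadjusted p under 0.05 (3.2% of all genes) and 14 with groups apart (1.36%). The count of 13 was 8 without obese replicate 5 and 9 without obese replicate 4 or lean replicate 2, whereas after the GC adjustment it was 14 to 18 without any 1 endpoint library. The mean log2 CPM over the list was 5.83, 5.72, 5.69 and 5.69 in lean and 5.30, 5.39, 5.13, 5.05 and 4.90 in obese tumors. The lean tumors kept close together and the obese tumors spread below them. The list was chosen knowing that it lay low in these tumors, so its count is no independent evidence of its direction. At day 14 its median log2 fold change was 0.11, without the GC adjustment.

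In the order of the pathway, Acat2, which joins acetyl-CoA units at the entry, measured 50.8, 51.3, 35.2 and 37.1 CPM in lean and 24.1, 27.3, 21.9, 15.7 and 13.2 CPM in obese tumors. The groups did not overlap, and the log2 fold change was -1.09 ± 0.28 (SE, adjusted p = 0.6179). Hmgcs1, which makes HMG-CoA, measured 265.6, 99.2, 205.5 and 194.6 CPM in lean and 144.2, 121.1, 107.8, 133.5 and 123.1 CPM in obese tumors. Lean replicate 2, the library with the shallow GC slope, lay below all 5 obese libraries, and after the GC adjustment the groups no longer overlapped (-0.67, against -0.60 before).

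Among the steps from mevalonate to farnesyl diphosphate, Pmvk (phosphomevalonate kinase, chromosome 3, 89459118 to 89469013) measured 44.6, 56.4, 43.99 and 40.3 CPM in lean and 26.2, 34.0, 23.5, 25.3 and 19.2 CPM in obese tumors. The groups did not overlap, and the log2 fold change was -0.85 ± 0.23 (SE, adjusted p = 0.622), or -0.79 after the GC adjustment (adjusted p = 0.2587). Mvd, the next decarboxylase, had -0.71, Fdps, which makes farnesyl diphosphate, -0.53, Mvk, mevalonate kinase, -0.40 and Idi1, the isomerase, -0.32. Their groups overlapped.

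From squalene on, Cyp51, the lanosterol demethylase, measured 218.1, 152.7, 138.4 and 135.1 CPM in lean and 91.6, 104.2, 79.3, 80.0 and 63.4 CPM in obese tumors. Its log2 fold change was -0.94 ± 0.39 (SE) and its groups did not overlap. The groups were also apart for Sqle (squalene epoxidase, -0.58), Lss (lanosterol synthase, -0.66), Msmo1 (sterol methyl oxidase, -0.60), Nsdhl (the sterol dehydrogenase of the same complex, -0.64), Sc5d (sterol desaturase, -0.57) and Dhcr7 (the reductase of the last step, -0.77). Fdft1 (squalene synthase, -0.63), Hsd17b7 (-0.43) and the sterol carrier Stard4 (-0.74) had groups that overlapped, each through 1 library, lean replicate 2 or obese replicate 2. Tm7sf2 (-0.12) and Ebp (-0.06), a sterol reductase and the sterol isomerase, were the members nearest to 0, and Ebp was at 0.0023 after the GC adjustment. Obese replicate 2 was the obese library nearest to the lean ones for most of these genes, and without it the list median was -0.665.

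**Figure D3:**
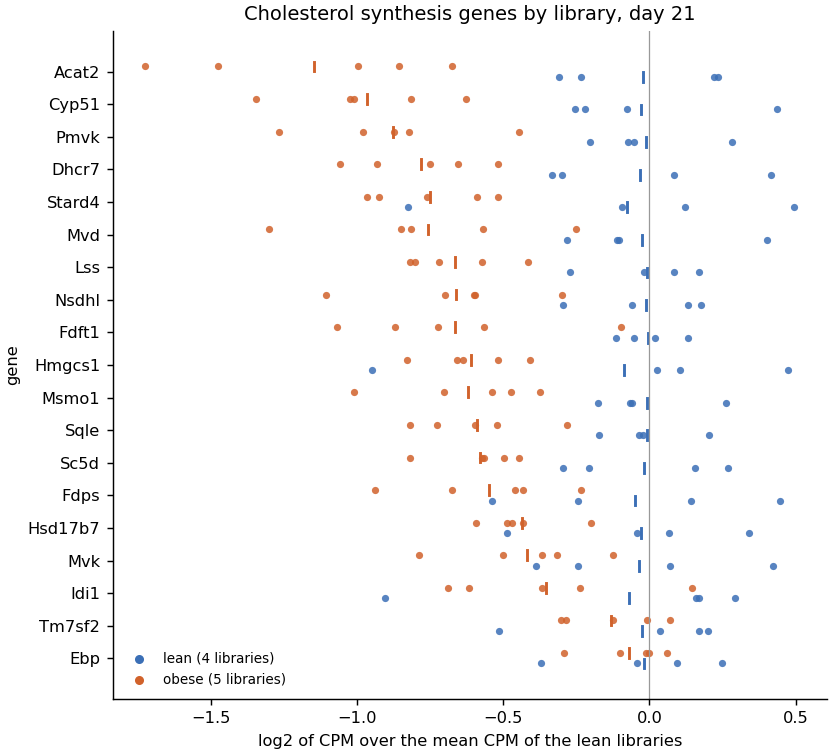
Each point is 1 library, as log2 of its CPM over the mean CPM of the 4 lean libraries (horizontal), for 19 of the 21 cholesterol synthesis genes (vertical); blue is lean, orange is obese, and short bars are group means of the log2 values. The orange bars lie left of the blue bars in every row, with the least distance for Ebp and Tm7sf2, and the isolated blue points at the left for Stard4, Hmgcs1 and Idi1 are lean replicate 2.

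Promoters of 15 of the 21 genes were found in the RefSeq table of GRCm38.p6, which gives 250 bases before to 50 after each start. The NF-Y box, CCAAT on either strand, which binds a cofactor of SREBP-2, was in 14 of the 15 genes (93.3%), against 42.1% of the 10860 tested genes with an entry. The sterol regulatory element, TCACNCCAC on either strand, was in 1 of the 15 (6.67%), against 1.44%. The Hmgcs1 promoter is printed because it is the one that holds both motifs, and a Dhcr7 promoter because Dhcr7 is a named gene with groups apart. Hmgcs1 itself is outside the naming rule and was singled out for its promoter. Capitals mark the motif letters, CCAAT or its complement ATTGG, and in Hmgcs1 also the sterol element. The stretches are chr13:119690101-119690400 for Hmgcs1 and chr7:143829964-143830263 for Dhcr7, both on the plus strand, and the latter is the third of 3 listed Dhcr7 starts, of which the other two hold no motif.
Hmgcs1: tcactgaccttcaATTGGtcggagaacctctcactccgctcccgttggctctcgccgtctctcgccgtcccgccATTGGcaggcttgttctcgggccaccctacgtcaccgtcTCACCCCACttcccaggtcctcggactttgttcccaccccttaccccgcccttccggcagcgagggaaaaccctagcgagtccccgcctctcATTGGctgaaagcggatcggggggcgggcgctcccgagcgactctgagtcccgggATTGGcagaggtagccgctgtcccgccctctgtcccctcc
Dhcr7: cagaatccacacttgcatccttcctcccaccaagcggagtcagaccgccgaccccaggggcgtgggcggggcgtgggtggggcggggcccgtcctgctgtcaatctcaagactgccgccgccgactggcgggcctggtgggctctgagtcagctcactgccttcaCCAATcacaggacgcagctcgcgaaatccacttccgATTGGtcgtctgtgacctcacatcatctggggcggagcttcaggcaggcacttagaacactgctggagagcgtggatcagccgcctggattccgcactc
A match of these letters is a description of the stretch and not evidence that a factor binds there.

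Of the 14 genes of sterol sensing and uptake, 10 lay below 0 (median -0.13), and 3 were lower (2.61% of all genes were) and 0 higher at an unadjusted p under 0.05. Without lean replicate 3, obese replicate 3 or obese replicate 4 it was 1, and without lean replicate 2 or obese replicate 5 it was 2. With the GC adjustment the median was -0.08 and 4 were lower (3.2% of all genes). Insig1, the sterol-dependent brake on SREBP-2, measured 79.7, 70.3, 71.8 and 62.4 CPM in lean and 47.1, 50.8, 38.6, 42.9 and 29.9 CPM in obese tumors. The groups did not overlap, and the log2 fold change was -0.76 ± 0.33 (SE, adjusted p = 0.9891). Srebf2, which encodes SREBP-2, had -0.27, its escort Scap -0.13, and the lysosomal transporters Npc1 and Npc2 -0.13 and 0.08. All 4 overlapped between groups. Of 9 cholesterol efflux genes, 0 were below an unadjusted p of 0.05 and the median was 0.01.

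In the fatty acid branch, 16 of 19 synthesis genes were below 0 (median -0.23, where 49.3% of all genes lay above 0), and 3 were lower (2.61% of all genes were) and 0 higher at an unadjusted p under 0.05. Scd1, the stearoyl-CoA desaturase, measured 155.4, 180.0, 129.4 and 152.7 CPM in lean and 96.4, 123.8, 90.8, 90.4 and 88.3 CPM in obese tumors, so the groups were apart (-0.66 ± 0.25, SE). The desaturase Fads2 had -0.90 and the acetate-activating enzyme Acss2 -0.75, with groups that overlapped. Acly, which supplies cytosolic acetyl-CoA from citrate, had -0.37 with groups apart. Fasn, the fatty acid synthase itself, measured 344.8 to 524.8 CPM in lean and 330.9 to 532.4 CPM in obese tumors (-0.09), and Srebf1, which encodes the factor for this branch, had -0.24. Without lean replicate 2 the list median was -0.11 and 1 gene was lower. With the GC adjustment 5 genes were lower (3.2% of all genes), with a median of -0.20. That count was 2 without lean replicate 2 or obese replicate 5, and 3 to 5 without any other endpoint library.

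Fatty acid uptake and activation genes went both ways, with 2 higher (2.29% of all genes were) and 2 lower (2.61%) of 14 at an unadjusted p under 0.05 and a median of 0.03. Single libraries left out gave 1 to 2 on each side and a median of -0.044 to 0.069. Acsbg1, an acyl-CoA synthetase of long fatty acids, measured 2.93, 4.95, 8.70 and 5.17 CPM in lean and 12.4, 10.6, 16.4, 8.93 and 7.38 CPM in obese tumors. Obese replicate 5 lay below lean replicate 3, and the log2 fold change was 1.03 ± 0.35 (SE, adjusted p = 0.9891). Lpl, the lipoprotein lipase, measured 12.35 CPM in obese replicate 4 and 0.847 to 2.92 CPM in the other 8 libraries (1.39 ± 0.62, SE). Obese replicate 4 also had the highest Pparg, at 4.995 CPM against 0.343 to 1.93 CPM in the others, and the highest Il6. The same library had the highest macrophage markers, which summed to 801.5 CPM against 148.7 to 448.2 CPM in the other 8, and the highest pan-leukocyte markers, with a mean of 5.47 log2 CPM against 3.55 to 4.63. The part of these cells in the Lpl, Pparg and Il6 values was not tested. Dbi, the acyl-CoA binding protein, had -0.36.

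Of 36 interferon-stimulated genes, 35 had a log2 fold change above 0 in obese tumors (49.3% of all genes did), with a median of 0.44. At an unadjusted p under 0.05, 7 lay higher (2.29% of all genes did) and 0 lower, and after the GC adjustment 16 lay higher (3.93% of all genes) with a median of 0.46. The list's mean log2 CPM was 6.02, 5.62, 4.61 and 6.04 in lean and 5.99, 6.05, 5.90, 6.402 and 6.13 in obese tumors. Lean replicates 1 and 5 lay within the obese range, while replicates 2 and 3 lay below it, replicate 3 by more than 1 log2 unit. Without lean replicate 3 the median was 0.21, 23 genes lay above 0, and 0 had an unadjusted p under 0.05 (0.24, 28 and 5 after the GC adjustment). Without obese replicate 4 or 5 the count of 7 was 3, and without lean replicate 5 it was 13.

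Mx2 measured 8.95, 9.01, 5.53 and 8.12 CPM in lean and 11.7, 12.9, 10.8, 13.8 and 12.8 CPM in obese tumors (0.65 ± 0.24, SE, edgeR adjusted p = 0.9891). It was the member that lay higher with groups apart (0.636% of all genes did). After the GC adjustment 3 members did (1.33% of all genes), among them Mx2 and Rsad2. Ifit1, which binds foreign RNA caps, measured 65.4, 29.2, 33.6 and 69.0 CPM in lean and 89.2, 56.6, 60.3, 132.9 and 112.5 CPM in obese tumors, so obese replicates 2 and 3 lay within the lean range (0.87 ± 0.33, SE). Rsad2, the antiviral enzyme viperin, measured 170.7, 88.97, 85.9 and 156.6 CPM in lean and 170.2, 163.8, 152.7, 298.8 and 217.9 CPM in obese tumors (0.68 ± 0.27, SE). Oas2, a sensor of double-stranded RNA, had 0.62. Of the regulators of the program, Stat2 had 0.09, Irf9 0.07 and Irf7 0.35. Isg15, a ubiquitin-like modifier, was the member below 0, at -0.20. At day 14 the list's median log2 fold change was -0.60, without the GC adjustment.

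Promoters of 27 of the 36 genes were found in the same table. The interferon-stimulated response element, searched on either strand as GAAA, any 2 bases and GAAA, was in 19 of the 27 (70.4%), against 3.96% of all tested genes with an entry. The promoters of Ifit1 (chr19:34640639-34640938, plus strand) and Rsad2 (chr12:26456403-26456702, minus strand) are printed because both are named members with the element. Capitals mark it, read here from the other strand as TTTC, 2 bases and TTTC.
Ifit1: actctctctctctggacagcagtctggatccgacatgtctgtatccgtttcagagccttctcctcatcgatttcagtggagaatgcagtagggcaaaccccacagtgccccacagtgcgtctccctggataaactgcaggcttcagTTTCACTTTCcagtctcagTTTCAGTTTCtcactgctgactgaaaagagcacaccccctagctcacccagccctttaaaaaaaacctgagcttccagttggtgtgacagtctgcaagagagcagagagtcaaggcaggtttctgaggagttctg
Rsad2: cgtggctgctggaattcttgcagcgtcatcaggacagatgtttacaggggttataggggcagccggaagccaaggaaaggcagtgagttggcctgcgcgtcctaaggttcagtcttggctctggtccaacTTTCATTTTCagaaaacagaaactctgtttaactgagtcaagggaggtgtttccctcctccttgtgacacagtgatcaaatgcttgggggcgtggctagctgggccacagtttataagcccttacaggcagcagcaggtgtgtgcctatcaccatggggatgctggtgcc
Ifit1 holds the element at 2 places and Rsad2 at 1.

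Of 22 inflammatory cytokine and acute response genes, 15 lay above 0 (median 0.27), with 5 higher (2.29% of all genes were) and 1 lower (2.61%) at an unadjusted p under 0.05. The median was 0.142 without obese replicate 4, and 0.489 and 0.463 without lean replicates 1 and 5, and 0.416 without obese replicate 1. Without lean replicate 3 or obese replicate 3, 3 genes were higher. Besides Il6 and Lif the higher genes were Ptgs2, the inducible cyclooxygenase (0.75), Saa3, an acute phase protein (1.72), and Nos2, the inducible nitric oxide synthase (0.99). The lower gene, Il6ra, a receptor of interleukin-6, measured 69.2 CPM in lean replicate 1, 24.8 to 34.7 CPM in the other lean libraries and 21.3 to 33.9 CPM in obese tumors (-0.59). After the GC adjustment, and without lean replicate 1, 0 genes of the list were lower at that p. Saa3 measured 42.9, 20.8, 13.3 and 16.6 CPM in lean and 57.3, 38.1, 134.8, 94.2 and 60.0 CPM in obese tumors, and obese replicate 2 lay below lean replicate 1. Tnf, Il1b and Csf1 overlapped widely, at -0.21, 0.20 and -0.09.

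Of 24 collagen and matrix genes, 17 lay above 0 (49.3% of all genes did), with a median of 0.34, and 6 were higher (2.29% of all genes were) and 0 lower at an unadjusted p under 0.05. Without obese replicate 5 the median was 0.221, with 6 genes higher. Col1a1, the main fibrillar collagen of connective tissue, measured 0.504, 0.901, 0.726 and 1.68 CPM in lean and 1.88, 3.43, 4.02, 2.70 and 1.63 CPM in obese tumors. Its partner chain Col1a2 (chromosome 6, 4504814 to 4541543) measured 1.67, 0.6004, 0.303 and 1.54 CPM in lean and 2.30, 3.52, 4.48, 3.15 and 1.77 CPM in obese tumors. Obese replicate 5 was nearest to the lean libraries in both, and the log2 fold changes were 1.502 ± 0.43 and 1.58 ± 0.41 (SE). Lox, which cross-links collagen, measured 0.0375 to 0.126 CPM in lean and 0.239 to 0.569 CPM in obese tumors (2.22 ± 0.67, SE), and Col5a2 had 1.27. The fibrillar chains Col3a1 and Col5a1 had 0.40 each. The basement membrane collagens Col4a1 and Col18a1 had -0.01 and -0.04, and the type VI chains Col6a1 and Col6a3 -0.13 and 0.06. With a filter of 5 CPM in 4 libraries the list median was 0.10.

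Fibroblast markers lay on the same side. Of 12 tested markers, 9 were above 0 (median 0.96, and 0.59 after the GC adjustment), and 3 were higher at an unadjusted p under 0.05 (2.29% of all genes were): Col1a1 and Col1a2, which also belong to the matrix list, and Postn (periostin, 1.25). Without lean replicate 3, obese replicate 1 or obese replicate 2, 5 were higher. The markers' mean log2 CPM was 2.33, 1.93, 1.90 and 1.98 in lean and 2.44, 2.64, 3.19, 2.80 and 2.53 in obese tumors. The proteoglycan genes Lum and Dcn were highest in obese replicate 3, at 17.4 and 49.1 CPM of the library total, against at most 5.47 and 23.8 CPM in lean tumors. Pdgfra (-0.25), Dpt (-0.17) and Col3a1 (0.40), the markers that make up most of the summed level, overlapped between groups. The summed level of the markers was 1782 to 2889 CPM in lean and 1870 to 3183 CPM in obese tumors. With the fibroblast marker mean as a covariate, which shares 3 collagen genes with the matrix list, the matrix median was -0.01 and that of cholesterol synthesis -0.64. The marker mean did not overlap between the groups, so this fit cannot tell the covariate from host for genes that move with it.

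Mitochondrial genome transcripts had a median of -0.51 over 12 genes, and 6 were lower at an unadjusted p under 0.05 (2.61% of all genes were). The GC adjustment gave a median of -0.84 and 8 lower (3.2% of all genes). mt-Nd6, a complex I subunit gene on the light strand, measured 2045 CPM in lean replicate 1, 181.7 to 193.4 CPM in the other lean libraries and 199.8 to 251.6 CPM in obese tumors. Its log2 fold change was -1.55, and 0.26 without that library, or -1.76 and -0.67 after the GC adjustment. Without lean replicate 1 the mitochondrial median was -0.09, with 7 of 12 genes below 0 and 0 at an unadjusted p under 0.05. After the GC adjustment it was -0.729 without that library, with 12 of 12 genes below 0 and 5 lower at that p, so the 2 fits differ on the mitochondrial genes. The GC-adjusted list mean was 6.68, 6.83, 5.62 and 5.42 log2 CPM in lean and 4.90 to 5.66 in obese tumors. Lean replicates 3 and 5 thus lay within the obese range, and lean replicates 1 and 2 above it. Lean replicate 2 is the library with the shallow GC slope. Without the GC adjustment, leaving out lean replicate 1 gave a median of -0.52 for cholesterol synthesis (10 genes lower), 0.515 for interferon-stimulated genes (8 higher) and 0.98 for fibroblast markers (5 higher).

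**Figure D4:**
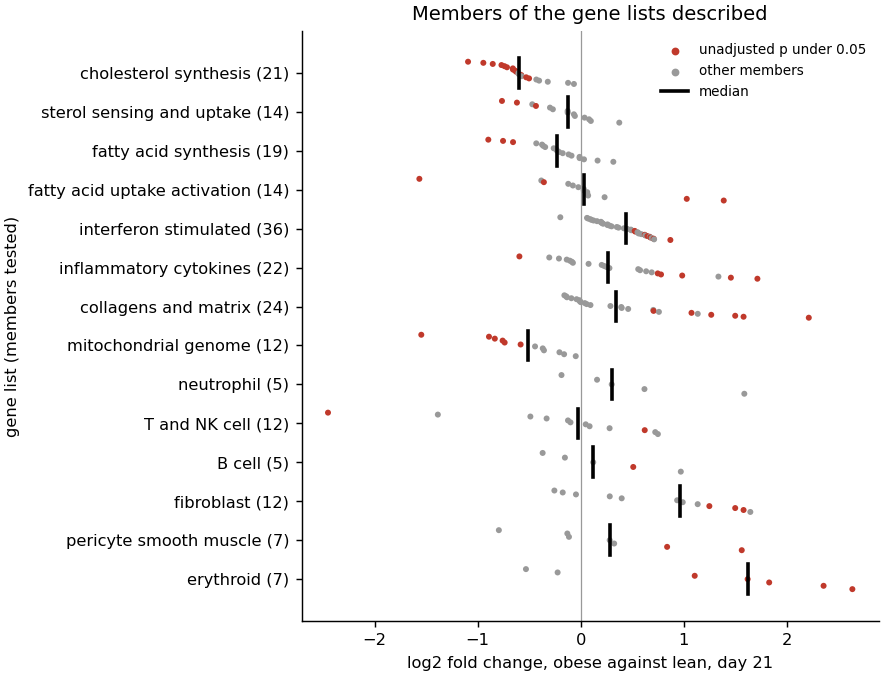
Each point is a gene of a list (vertical, with the number of members tested), at its log2 fold change of obese against lean tumors at day 21 (horizontal); red marks an unadjusted edgeR p under 0.05, and black bars are list medians. Cholesterol synthesis lies left of 0 with a median of -0.60, interferon-stimulated genes right of 0 with 0.44, and erythroid and fibroblast markers farthest right with 1.62 and 0.96.

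Markers of other cells in the tumor were present at different levels. Pan-leukocyte markers summed to 629.9 to 1180 CPM in lean and 708.3 to 1008 CPM in obese tumors, with most of the sum from Arhgdib (487 to 766 CPM of the library total), and of 9 genes 0 had an unadjusted p under 0.05 (median 0.14). The other 8 markers were highest in obese replicate 4, as Cd53, a leukocyte tetraspanin, at 34.9 CPM of the library total against 7.3 to 15.3 CPM in the other libraries. Macrophage markers summed to 270.4 to 448.2 and 148.7 to 801.5 CPM. Obese replicate 4 lay above every lean library and the other 4 obese libraries (148.7 to 251.1 CPM) below every lean library. Of 16 macrophage genes 1 was lower at an unadjusted p under 0.05 (2.61% of all genes were), Lyz2, lysozyme, at -1.02. Neutrophil markers summed to 45.3 to 92.8 and 47.4 to 84.1 CPM (median 0.30 over 5 genes, 0 at an unadjusted p under 0.05), with most of the sum from S100a8 (27.8 to 84.6 CPM of the library total), and 4 of the 9 listed, among them Ngp and Camp, were under the filter. Without obese replicate 4 the neutrophil median was -0.072, with 2 of 5 genes above 0. Dendritic cell markers summed to 15.1 to 55.4 and 18.3 to 54.9 CPM, endothelial markers to 82.2 to 129.6 and 95.5 to 141.9 CPM, and platelet markers to 6.69 to 31.0 and 5.83 to 28.2 CPM. The ranges of these groups overlapped in each list.

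Lymphocyte markers were scarce, at 2.66 to 6.97 CPM in lean and 4.43 to 9.45 CPM in obese tumors for T and NK cells and 4.6 to 9.04 and 7.06 to 12.2 CPM for B cells. Of 12 T and NK cell genes tested, 6 lay above 0 and 6 below (median -0.02). Cd3e, a subunit of the T cell receptor complex, had counts in 3 of 4 lean libraries (0.117 to 0.319 CPM) and at most 0.0795 CPM in obese ones (-2.45 ± 1.00, SE). It had 33 counts in the lean and 8 in the obese libraries, against 21 and 27 for the subunit gene Cd3d and 22 and 51 for Cd3g. Lck, a T cell kinase, had 0.62 and Pax5, a B cell factor, 0.51. Pericyte and smooth muscle markers summed to 171 to 249.5 and 168 to 240.6 CPM, and of 7 tested 4 lay above 0 and 3 below. Des (desmin, 0.84) and Cspg4 (the NG2 proteoglycan, 1.57) were the 2 higher at an unadjusted p under 0.05 (2.29% of all genes were). Rgs5, a pericyte gene, was at -0.79. Erythroid markers summed to 1.59 to 4.25 CPM in lean and 3.13 to 15.7 CPM in obese tumors, and 5 of 7 were higher at an unadjusted p under 0.05 (2.29% of all genes were). Without obese replicate 4 it was 1 and without lean replicate 3 it was 2. Hbb-bs, a beta-globin gene, measured 0.946, 0.938, 0.363 and 1.99 CPM in lean and 1.25, 4.52, 3.26, 8.82 and 1.11 CPM in obese tumors (1.83 ± 0.62, SE), so obese replicates 1 and 5 lay within the lean range. Near-identical globin copies make these counts uncertain. Skeletal muscle markers summed to at most 2.90 CPM, and 1 of 2 tested was lower at an unadjusted p under 0.05 (2.61% of all genes were).

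The library left out was set beside the others on chromosomes 1 to 4, where all 3090 genes with a mean of at least 50 counts had counts in it. Of 45 genes there that lay lower in obese tumors with groups apart, lean replicate 4 was above all 5 obese libraries in 28 (62.2%). Of 28 that lay higher, it was below all obese libraries in 18 (64.3%). Of all 4239 tested genes on these chromosomes, it was above all obese libraries in 18.4% and below them in 17.5%. The 45 and 28 genes were picked because their obese libraries all lay on 1 side of the lean ones. That choice alone raises the shares of 62.2% and 64.3%, so the shares of all genes are no matched reference for them. With 1 library, these are values without a test.

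By gene, lean replicate 4 lay above all obese libraries for the cholesterol synthesis genes Pmvk, Fdps and Hsd17b7. The last 2 are outside the naming rule and were singled out by position. Pmvk was at 404.8 CPM of the counts of chromosomes 1 to 4, against 195.5 to 293.3 CPM in the other lean and 92.4 to 169.9 CPM in the obese libraries. It also lay on the lean side for Gpr161 and Noct, whereas Fabp4, at 76.4 CPM, and Postn, at 20.2 CPM, lay within the obese range. The interferon-stimulated genes went the other way. For 7 of the 8 on these chromosomes, lean replicate 4 lay above all obese libraries, while the mean of the other lean libraries lay below the obese mean for these genes except Isg15. Ifih1, the RNA sensor MDA5, was at 653 CPM in it, 158.6 to 388.1 CPM in the other lean and 260.4 to 587.8 CPM in the obese libraries.

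**Figure D5:**
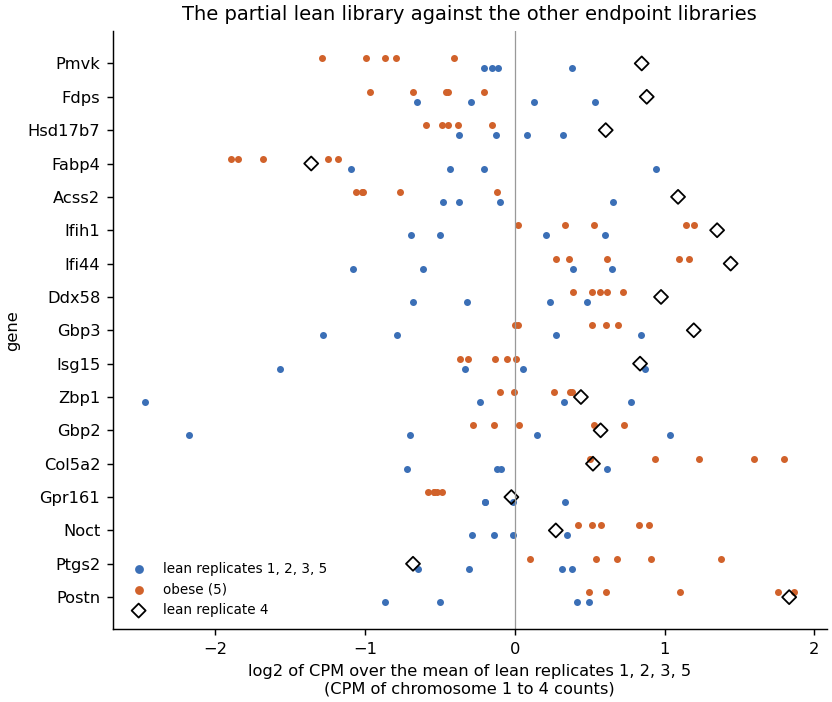
Each point is 1 library, as log2 of its CPM of chromosome 1 to 4 counts over the mean of lean replicates 1, 2, 3 and 5 (horizontal), for a selection of named and list genes of chromosomes 1 to 4 (vertical); blue is lean, orange is obese, and open diamonds are lean replicate 4. The diamonds lie right of the orange points for Pmvk, Fdps and Hsd17b7, and also for most interferon-stimulated genes, such as Ifih1 at 653 CPM.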

How the data were processed

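The authors deposited 1 table of whole-number counts per gene, not normalized, for 39017 genes and 19 libraries, with gene positions per the file headers. TopHat, DESeq and the mm10 build appear, without versions or roles, per the submitters' processing notes. How reads were counted, with which annotation and strand setting, is not given in the sources used here, so counts of overlapping, antisense or near-identical genes are uncertain. Symbols and GC content came from GENCODE by identifier (37607 genes). Sequences came from RefSeq (GRCm38.p6).

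Tests used edgeR 4.0.16 in R 4.3.3: TMM scaling, filterByExpr (16352 genes), a mean per group over 18 libraries, the quasi-likelihood test of obese against lean endpoint libraries, and Benjamini-Hochberg adjustment over all genes at 0.05. The 9 midpoint libraries enter through the shared estimate of the spread. Lean endpoint replicate 4 was left out. SE values were derived from the fold change and F statistic. CPM was computed here with TMM-scaled library sizes, with a prior count of 2 on the log2 scale. For the GC adjustment, a spline with 5 degrees of freedom of log2 CPM on gene GC was fitted per library (98.6% of tested genes have a GC value) and entered as an offset. The 9 endpoint libraries held 47959181 to 56717154 counts.

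The libraries, gene lists and rules were chosen with earlier results of these data known. Genes were named if called, or if groups did not overlap, the mean was at least 1 CPM and the unadjusted p was among the 12 smallest on each side (Gm, Rik, pseudogene, LOC, Mir and Snor names skipped), or, for each described list, as the 4 members of lowest p. A list was described with at least 5 tested members and either 3 times the share of all genes at an unadjusted p under 0.05 or a median log2 fold change of at least 0.3 in size. List members in the report beyond that rule were named after their values were seen. In data simulated on these libraries, the test recovered 30.5% of 200 genes changed 2-fold and 88% of those changed 4-fold. The simulated counts varied independently around a common mean per gene and held no GC trend by library, so recovery in the real data may differ. Alternatives were other scalings and filters, DESeq2 1.42.0, limma-voom (limma 3.58.1), other sets of libraries, GC and length offsets, marker covariates and the replicate number as a block. Some genes of the lists are counted in list values and not reported here by name.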

Additional observations from a re-analysis of the deposited data

Results flagged for a closer look

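Libraries that stood apart from the rest of their own group were looked for in 148 groups of values, and 20 were found. Chance gives about 1 in 20 groups, so part of these is to be expected. No explanation of them was tested.

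Lean replicate 1 was highest in its group for Rnu3a (28.02 CPM, next 3.47), Rny1 (10.09, next 2.101), mt-Nd6 (2045, next 193.4), mt-Nd1 (9641, next 3789), mt-Nd2 (5923, next 2011) and mt-Cytb (10510, next 4775), and for the mean of the mitochondrial genome list (7.832 log2 CPM, next 6.552). Lean replicate 5 was highest for Noct (20.08 CPM, next 14.65), Pax5 (7.162, next 3.751) and Cspg4 (0.7416, next 0.2018). Lean replicate 3 was highest for Gpr161 (30.37 CPM, next 22.0).

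Obese replicate 4 was highest in its group for Il6 (6.547 CPM, next 3.718) and Lpl (12.35, next 2.923) and lowest for Rnu3a (0.6074, next 1.679) and Rny1 (0.18, next 0.8462). Obese replicate 2 was highest for Lif (14.45 CPM, next 10.73), Scd1 (123.8, next 96.43) and Acss2 (16.61, next 10.8). Obese replicate 1 was lowest for Oas2 (33.81 CPM, next 49.38) and for the mean of the collagen and matrix list (4.535 log2 CPM, next 4.941).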

How the results depend on the processing

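Of 44 alternative settings for the count of genes called (1, AU018091), the count stayed at 1 under RLE and upper quartile scaling, no filter, a filter of 5 CPM in 4 libraries, GC offsets, GC and length offsets, the pan-leukocyte covariate and the fit without mitochondrial and structural RNA genes. DESeq2 called 13 genes, among them AU018091, Aoc2, Prickle1, Il6, Col1a2, Fabp4 and Kcnmb1. The count was 0 with limma-voom, with the 9 endpoint libraries alone (0 also with GC offsets), with all 19 libraries (0 on chromosomes 1 to 4), with the fibroblast marker covariate, and with GC offsets without lean endpoint replicate 2 (chosen after seeing the data, as was leaving out the other endpoint libraries with GC offsets, which gave 1). In these fits 825, 925, 1251, 259, 236, 624 and 901 genes had an unadjusted p under 0.05. Leaving out 1 library at a time gave 0 to 1 genes. With the replicate block the count was 0 (adjusted p of AU018091 0.193), and 0 with the replicate block and GC offsets (0.0788). The labels do not say whether equal numbers pair the samples. Deviations of same-numbered lean and obese libraries correlated at 0.153, 0.779, -0.139 and 0.21. Lean replicates 1 and 3 correlated best with another number, and lean replicates 2 and 5 with their own. So few correlations do not decide whether the samples are paired. With no filter on low counts 789 genes were higher and 460 lower at an unadjusted p under 0.05, and without mitochondrial and structural RNA genes 529 and 280.

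The log2 fold change of AU018091 was 1.72 to 2.17 over the settings without lean replicate 4. It was 2.26 with all 19 libraries, where the zeros of that library on chromosome 7 enter the lean mean. Signs turned for mt-Nd6, at 0.259 without lean endpoint replicate 1 (range -1.86 to 0.259 over single libraries left out; -0.673 without it after the GC adjustment), and for Postn, at -0.022 with the fibroblast marker covariate. The cholesterol median was -0.665 to -0.519 over single libraries left out and -0.265 with all 19 libraries, where the zeros of lean replicate 4 enter the lean mean. The fibroblast median was -0.105 with its own mean as covariate, and 0.487 with the replicate block and GC offsets. With 4 against 5 libraries, the precision rests on the spread between libraries more than on depth.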
